A study of Homo sapiens with 8 samples.

Results

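Temozolomide changed gene expression in 2 clones of the glioblastoma line LN229, and the comparison reported here is the difference between these 2 changes, gene by gene. For each gene, the log2 fold change of treated against untreated cells in the Surv-GFP clone was subtracted from that in the SurvNESmut-GFP clone. All 8 libraries of the series entered the comparison, 4 from each clone. LN229 cells of both clones carried a pcDNA3.1 plasmid with a survivin-eGFP fusion and came from single G418-resistant clones. In Surv-GFP (clone D6) the nuclear export signal of the fusion was functional and the protein was mainly cytoplasmic in untreated cells. After 50 µM temozolomide the study saw the fusion accumulate in the nucleus of this clone too. In SurvNESmut-GFP (clone L2) leucine-to-alanine changes in that signal left the protein mainly nuclear. Each clone was sequenced untreated and after exposure to 50 µM temozolomide (TMZ) for 48 h, with 2 libraries per group, lettered a and b. Each construct was represented by 1 clone, so that the construct and other properties of the clone cannot be told apart. The study describes its transcriptome samples as independent biological replicates in technical duplicate. GEO's labels do not say which of these a and b were, so p-values measure the spread between these libraries, which may be technical.

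TMZ methylates DNA, and unrepaired methylated guanine leads through mismatch repair and replication to DNA double-strand breaks, which are repaired largely by homologous recombination. The damage response stabilises p53, which induces the cell-cycle inhibitor p21 (CDKN1A) and represses mitotic genes, and long-lasting damage can lead to senescence with secretion of cytokines under the control of NF-κB. Survivin, the product of BIRC5, inhibits cell death in the cytoplasm and acts in the nucleus with the chromosomal passenger complex during mitosis. Its nuclear export signal is read by the exportin CRM1.

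Between 15826923 and 18861603 reads per library were assigned to genes, and 14201 of the 26364 genes in the count table were tested. Libraries of a group correlated at r of at least 0.994 across genes, and libraries of different groups at no more than 0.986. The treated SurvNESmut-GFP pair stood furthest apart. Its counts differed between a and b by a chi-square of 5.75 per degree of freedom, against no more than 2.66 in the other groups, and 14.3% of the reads of library a fell outside annotated features, against 11.2% to 12.8% in the other 7 libraries. Where leaving out 1 library of this pair ended a called difference named below, or moved such a difference or a count given for a class or gene list by over 1.5 times, the value without it is given beside it. Of 12 astrocyte and glioma markers 8 exceeded 1 CPM (reads scaled to a common total per library) in at least 1 library. VIM, NES, CD44 and TNC were abundant in all groups, while GFAP, SOX9, AQP4 and CHI3L1 stayed under 1 CPM. S100B, SOX2, OLIG2 and SLC1A3 averaged 777, 90.7, 34.0 and 13.3 CPM in untreated Surv-GFP. In untreated SurvNESmut-GFP they were lower, at 40.6, 34.4, 6.94 and 8.16 CPM. VIM and TNC were also lower there, and NES and CD44 higher. None of 5 endothelial markers reached 1 CPM, and of 6 leukocyte markers only CD68 did. Epithelial (3 of 6), neuronal (4 of 5) and oligodendrocyte (3 of 4) markers were partly expressed. Their summed levels were 159, 247 and 673 CPM in untreated Surv-GFP against 146, 91.7 and 251 CPM in untreated SurvNESmut-GFP. Of the 7 fibroblast and mural markers all exceeded 1 CPM, and their summed level was 127 and 60.6 CPM in untreated and treated Surv-GFP against 615 and 419 CPM in SurvNESmut-GFP, mostly through the collagen gene COL1A2. The part of these baseline differences between clones in the results below was not tested.

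The response to TMZ differed between the clones for 5226 genes. A gene was called at an adjusted p below 0.05 in edgeR's quasi-likelihood test, with Benjamini-Hochberg adjustment over all 14201 genes. The difference was positive, meaning a more positive or less negative change in SurvNESmut-GFP, for 2355 genes (16.6% of those tested) and negative for 2871 (20.2%). Its size was at least 1 on the log2 scale for 779 genes and at least 2 for 172. Within Surv-GFP, 4271 genes rose (30.1%) and 4100 fell (28.9%) under TMZ. In SurvNESmut-GFP, 2648 rose (18.6%) and 2719 fell (19.1%). The direction with more calls depended on scaling and filter. With library sizes alone 2909 differences were positive and 2385 negative, and with a filter at 1 CPM in 2 libraries 2815 and 2493, while the median difference over all genes moved from -0.001 to 0.05 and 0.04. Calls in Surv-GFP were then 4059 up and 4293 down, and 3819 and 4463, and in SurvNESmut-GFP 3124 and 2236, and 2692 and 2686. RNA came from whole cultures, in which fewer cells with a transcript and less of it per cell cannot be told apart.

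Genes with a called difference were sorted by their response in each clone. Because a missed threshold does not show that a gene stayed constant, a gene counted as responding in 1 clone only when it was called there with a change of at least 1 on the log2 scale, was not called in the other clone, and had a 95% interval in that clone inside 0.5 on either side of 0. By this rule, 100 genes rose only in Surv-GFP (0.704% of tested genes) and 58 fell only in Surv-GFP (0.408%). Only in SurvNESmut-GFP, 10 genes rose (0.0704%) and 4 fell (0.0282%). Without library a of treated SurvNESmut-GFP these were 6 and 2. Opposite directions, called in both clones, were found for 555 genes: 319 rose in Surv-GFP and fell in SurvNESmut-GFP (2.25%), and 236 did the reverse (1.66%). The larger of these classes was the second one with library sizes alone (224 and 320) and with the 1 CPM filter (273 and 287). Most opposite changes were small. Median log2 changes in Surv-GFP and SurvNESmut-GFP were 0.37 and -0.28 for the first kind and -0.37 and 0.31 for the second, and both changes exceeded 0.5 in 40 and 33 genes. A further 1139 genes (8.02%) moved in the same direction with a smaller change in SurvNESmut-GFP, and 164 (1.15%) with a larger one. The remaining 3196 (22.5%) had a called difference but fulfilled none of these definitions.

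**Figure D1:**
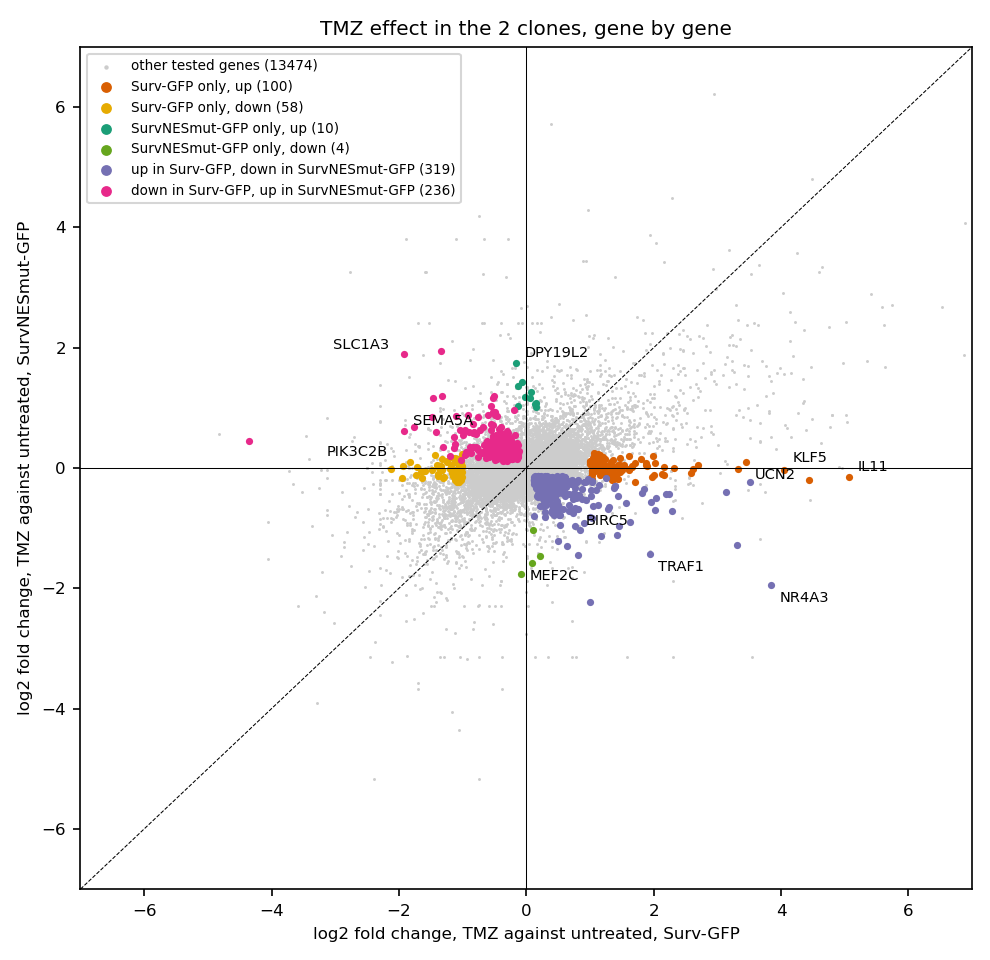
Log2 fold change of TMZ-treated against untreated cells in Surv-GFP (horizontal) and SurvNESmut-GFP (vertical), 1 point per tested gene, with 3 genes outside the plotted range. Coloured points are the 6 classes of genes that responded in 1 clone only or in opposite directions; the dashed line marks equal change. Of the genes that responded in 1 clone only, those along the right arm (100 genes up in Surv-GFP only) outnumber those along the upper and lower arms (10 and 4).

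Genes induced only in Surv-GFP included cytokine, transcription factor and stress genes. Genes named from the classes by size of difference had to have untreated and treated libraries that did not overlap in a called clone. For them this separation is a condition of naming and no separate result. The gene with the largest difference was IL11, a cytokine of the IL-6 family. IL11 measured 6.45 and 6.07 CPM in untreated and 203 and 218 CPM in treated Surv-GFP (a and b), and 64.5 and 71.7 CPM before and 54.3 and 68.1 CPM after treatment in SurvNESmut-GFP. The untreated and treated libraries were far apart in Surv-GFP and overlapped in SurvNESmut-GFP, whose level lay between those of untreated and treated Surv-GFP throughout. The log2 fold change was 5.07 ± 0.11 (SE) for Surv-GFP against -0.16 ± 0.08 for SurvNESmut-GFP, which gave a difference of -5.23 ± 0.14 (edgeR adjusted p = 3.94e-13). KLF5, a zinc-finger transcription factor, rose from 16.9 and 16.2 to 277 and 271 CPM in Surv-GFP, while SurvNESmut-GFP measured 71.1 and 69.1 CPM untreated and 61.5 and 75.8 CPM treated, with a difference of -4.08 ± 0.11 on the log2 scale. GPR158, an orphan G-protein-coupled receptor, rose from 1.19 and 1.38 to 26.4 and 29.6 CPM in Surv-GFP and measured 18.9 and 19.9 CPM untreated and 16.2 and 17.5 CPM treated in SurvNESmut-GFP. Again the SurvNESmut-GFP libraries lay above the untreated Surv-GFP libraries and below the treated ones.

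UCN2, which encodes a peptide hormone of the urocortin family, reached 17 and 20.5 CPM in treated Surv-GFP from 1.41 and 1.99 CPM. In SurvNESmut-GFP the UCN2 libraries overlapped, at 27.7 and 25.5 CPM untreated and 27 and 30.0 CPM treated, all above the treated Surv-GFP level. The remaining named genes were NFIL3, a leucine-zipper repressor, RCAN1, an inhibitor of calcineurin, DNAJB9, a co-chaperone of the endoplasmic reticulum, and RIPK4, a protein kinase. NFIL3 measured 9.7 and 8.89 CPM untreated and 61.3 and 59.7 CPM treated in Surv-GFP, and 17 and 17.4 CPM untreated and 16 and 19.9 CPM treated in SurvNESmut-GFP. RCAN1 rose from 362 and 351 to 1746 and 1826 CPM in Surv-GFP and measured 216 and 230.0 CPM untreated and 193 and 252 CPM treated in SurvNESmut-GFP. For DNAJB9 the values were 18.9 and 18.8 CPM untreated and 89.9 and 79.3 CPM treated in Surv-GFP, against 16.1 and 17.8 CPM untreated and 15.1 and 16.3 CPM treated. For RCAN1 and DNAJB9 both SurvNESmut-GFP groups lay below untreated Surv-GFP, unlike IL11, KLF5, GPR158 and UCN2. RIPK4 differed mainly between the clones: it rested on 6 counts in untreated and 37 in treated Surv-GFP, against 1343 and 1151 in the SurvNESmut-GFP groups, so that its log2 change of 2.59 ± 0.49 in Surv-GFP is imprecise and its difference of -2.67 ± 0.50 became -4.13 without untreated Surv-GFP library a.

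Over all 100 genes induced only in Surv-GFP, the median log2 change was 1.23 in Surv-GFP but 0.02 in SurvNESmut-GFP. Untreated SurvNESmut-GFP exceeded untreated Surv-GFP in 73 of the 100, compared with 52.7% of all tested genes, but exceeded treated Surv-GFP in only 18. The median level of the class was 17 CPM in untreated and 45.8 CPM in treated Surv-GFP, and 26.4 and 26.1 CPM in SurvNESmut-GFP. These shares use the same untreated libraries as the changes and are given as a description.

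A sequence element known to be bound by AP-1, a complex of FOS and JUN proteins, is shown for IL11 and UCN2 because both carry it in the promoter window and both rose only in Surv-GFP. The windows come from RefSeq (GRCh38.p14) and are written 5′ to 3′ on the gene's strand with the element TGANTCA in capitals, which end 90 and 96 bases before the annotated start.
IL11, chr19:55370533-55370579, minus strand: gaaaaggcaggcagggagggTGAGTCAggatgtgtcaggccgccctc
UCN2, chr3:48563857-48563903, minus strand: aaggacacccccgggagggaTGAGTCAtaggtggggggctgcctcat
Of the 83 genes of this class with a promoter in the table (250 bases before to 50 after the start, 1 window per gene), 7 held TGANTCA on either strand (8.43%), against 7.76% of all 27305 promoters and 4.58% of the 11213 promoters matched to tested genes. A match of letters does not show that a factor binds there.

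Genes repressed only in Surv-GFP differed between the clones by at most 2.11 on the log2 scale. Among the 58 genes the median log2 change was -1.13 in Surv-GFP but -0.03 in SurvNESmut-GFP, and the named genes measured between 3.69 and 74.8 CPM in Surv-GFP. PIK3C2B, a lipid kinase, fell from 14 and 15 to 3.69 and 4.48 CPM in Surv-GFP and measured 6.72 and 7.28 CPM untreated and 8.24 and 6.75 CPM treated in SurvNESmut-GFP. The libraries did not overlap in Surv-GFP, as the naming rule required, and did in SurvNESmut-GFP. The difference was 1.93 ± 0.21 on the log2 scale (edgeR adjusted p = 2.18e-06). GBP1, an interferon-inducible GTPase, started at similar levels in both clones, at 18.2 and 18.8 CPM in Surv-GFP and 17.9 and 18.5 CPM in SurvNESmut-GFP, and ended at 5.67 and 8.15 against 21.2 and 21 CPM. SECTM1, which encodes a membrane and secreted protein, fell from 51.2 and 46 to 17.1 and 20.8 CPM in Surv-GFP and measured 54.3 and 57.3 CPM untreated and 52.9 and 59.2 CPM treated in SurvNESmut-GFP. In GBP1 and SECTM1 the clones were close before treatment and separated after it, whereas PIK3C2B was already lower in untreated SurvNESmut-GFP.

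MMP15, a membrane-type metalloproteinase, and RBMS3, an RNA-binding protein, showed the other arrangement. MMP15 fell from 74.8 and 71.9 to 26.5 and 29.3 CPM in Surv-GFP, towards the 20.8 and 19.2 CPM of untreated and 21.5 and 20.1 CPM of treated SurvNESmut-GFP. RBMS3 fell from 63.8 and 62.9 to 23.8 and 26.6 CPM against 15.2 and 16.4 CPM untreated and 14.8 and 17.6 CPM treated. The homeobox gene PKNOX2 (difference 1.79 ± 0.19), TMEM171 (1.48 ± 0.17) and the transcriptional regulator TRERF1 (1.34 ± 0.13) completed the 8 named genes, with adjusted p of at most 4.93e-06 over all 8 in edgeR's test.

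Responses found only in SurvNESmut-GFP were few. DPY19L2 had the largest difference among the 10 induced genes: it measured 8.24 and 8.44 CPM untreated and 7.65 and 7.29 CPM treated in Surv-GFP, and rose from 7.7 and 8.17 to 28.9 and 24.1 CPM in SurvNESmut-GFP. The other 6 libraries lay between 7.29 and 8.44 CPM. The log2 fold change was -0.16 ± 0.13 for Surv-GFP against 1.74 ± 0.11 for SurvNESmut-GFP (difference 1.90 ± 0.18, edgeR adjusted p = 4.89e-07). The ankyrins ANK1 and ANK2, which tie membrane proteins to the spectrin skeleton, were both in this group. ANK1 rose from 32.8 and 34.9 to 91.2 and 92 CPM in SurvNESmut-GFP and measured 12.1 and 12.6 CPM untreated and 10.3 and 13.5 CPM treated in Surv-GFP. ANK2 rose from 10.7 and 10.9 to 30.2 and 25.1 CPM against 19.5 and 22 CPM untreated and 18.2 and 19.8 CPM treated. Untreated SurvNESmut-GFP thus lay above Surv-GFP for ANK1 and below it for ANK2.

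CIITA, the transactivator of major histocompatibility complex class II genes, rose from 15.8 and 14.3 to 32.4 and 28.8 CPM in SurvNESmut-GFP but remained below the 75.3 and 84 CPM of untreated and 70.7 and 74.2 CPM of treated Surv-GFP. VLDLR, a lipoprotein receptor, rose from 10.3 and 11.4 to 27.1 and 21.4 CPM, reaching or exceeding the range of Surv-GFP (21.5 and 21.3 CPM untreated, 21.7 and 22.8 CPM treated). Differences were 1.16 ± 0.11 and 1.11 ± 0.15. The glycosidase gene MGAM2 (1.21 ± 0.23), the sialyltransferase gene ST6GALNAC3 (0.92 ± 0.14) and AZGP1, which encodes a secreted glycoprotein (0.87 ± 0.23), followed. AZGP1 lost its call without library a of treated SurvNESmut-GFP, with a difference of 0.64 and an adjusted p of 0.0558.

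The 4 genes that fell only in SurvNESmut-GFP all had widely spaced treated libraries, with a below b. MEF2C, a transcription factor of neural and muscle development, measured 112 and 114 CPM in untreated and 20.9 and 46.5 CPM in treated SurvNESmut-GFP, against 83.1 and 75.1 CPM untreated and 75.3 and 73.8 CPM treated in Surv-GFP. DNM3, a dynamin GTPase, went from 29 and 28.1 to 7.42 and 13.5 CPM, with 26.1 and 25.2 CPM untreated and 29.7 and 29.6 CPM treated in Surv-GFP. DACT1, an antagonist of Wnt signalling, went from 54.7 and 51.8 to 14 and 21.7 CPM, with 12.6 and 12.9 CPM untreated and 14.5 and 12.4 CPM treated in Surv-GFP. For each of them the treated SurvNESmut-GFP libraries lay below both untreated ones, as the naming rule required. The differences were -1.68 ± 0.25 for MEF2C, -1.67 ± 0.20 for DNM3 and -1.67 ± 0.20 for DACT1, which became -1.20, -1.29 and -1.38 without library a and -2.35, -2.15 and -2.01 without library b. SPRY1, a feedback inhibitor of receptor tyrosine kinase signalling, had a difference of -1.15 ± 0.24, or -0.85 and -1.50 without a or b. MEF2C was not called with a robust prior in edgeR (adjusted p = 0.056). The class held 2 genes without library a and 12 without library b.

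**Figure D2:**
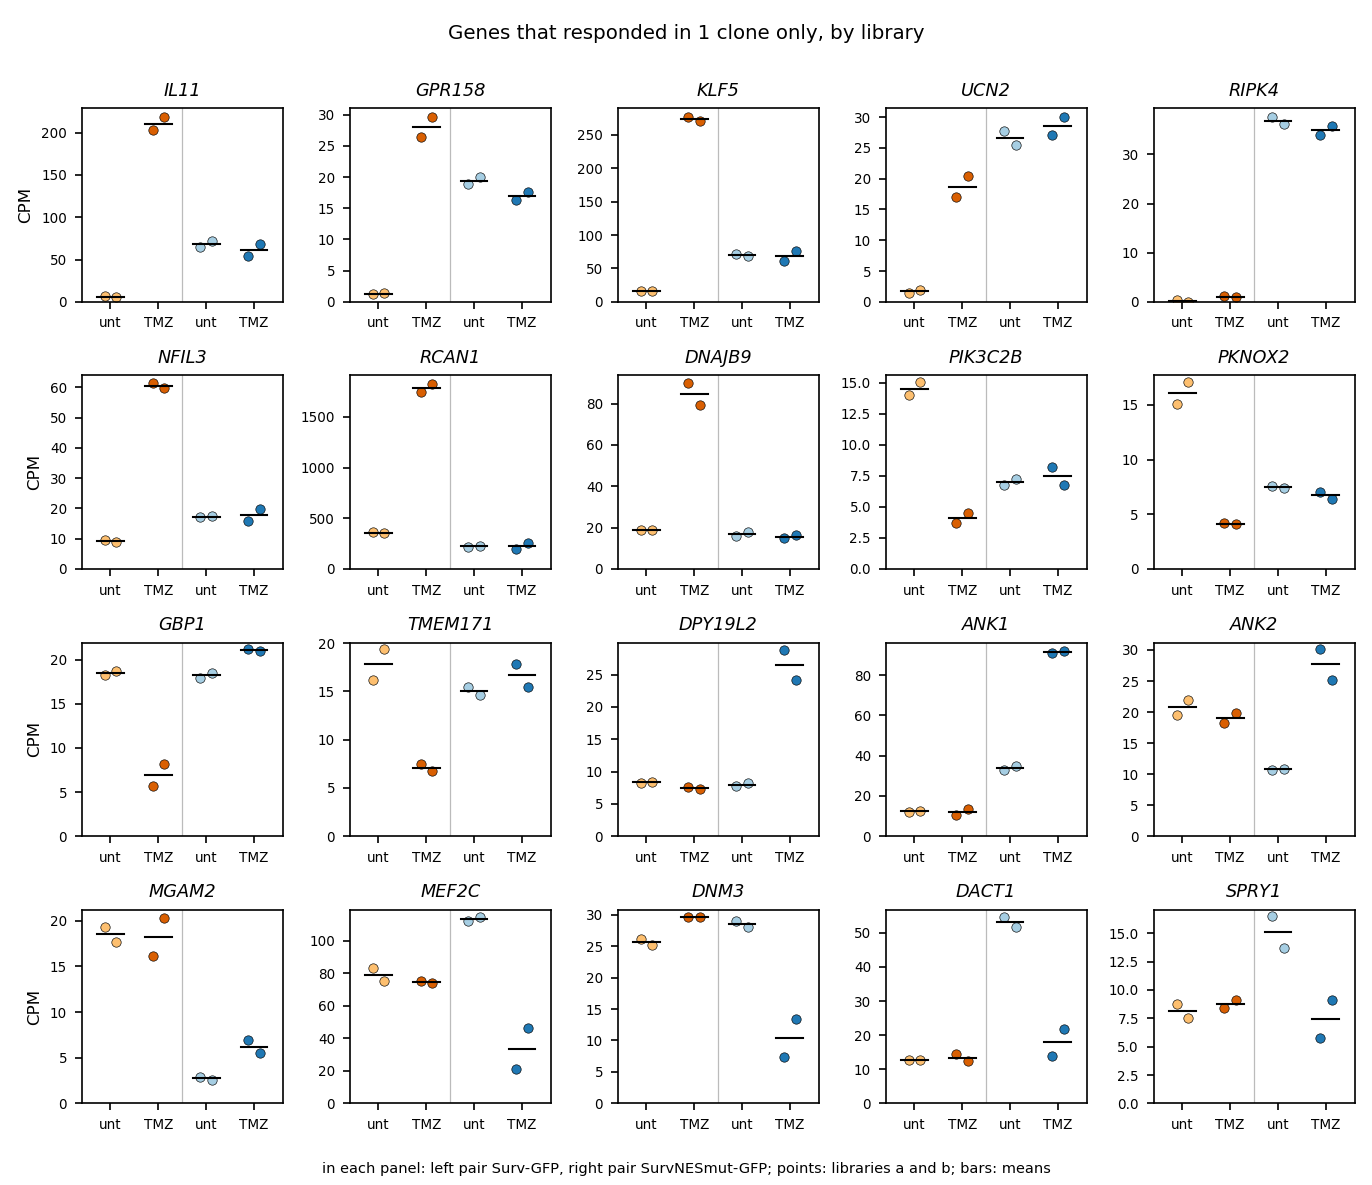
Level of 20 genes that responded in 1 clone only, in CPM on axes that start at 0, for untreated (unt) and TMZ-treated libraries a and b of Surv-GFP (orange) and SurvNESmut-GFP (blue); bars are means of 2 libraries. The first 8 rose and the next 4 fell in Surv-GFP only, and the last 8 (DPY19L2 to SPRY1) rose or fell in SurvNESmut-GFP only, where the treated libraries of MEF2C (20.9 and 46.5 CPM) lie apart.

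Opposite responses of large size were led by the nuclear receptor gene NR4A3, an immediate early gene. NR4A3 rose from 1.03 and 0.662 to 11.8 and 12.9 CPM in Surv-GFP and fell from 8.3 and 7.67 to 1.46 and 2.71 CPM in SurvNESmut-GFP. After treatment its level in Surv-GFP was above, and in SurvNESmut-GFP below, every untreated SurvNESmut-GFP library. The log2 changes were 3.85 ± 0.23 and -1.95 ± 0.21, a difference of -5.80 ± 0.32 (edgeR adjusted p = 1.57e-09). Its relatives NR4A1 and NR4A2, picked after their values were seen, belonged to the same class. NR4A2 rose from 33 and 31.9 to 85.5 and 88.3 CPM and fell from 84.9 and 78.6 to 29 and 46.6 CPM (difference -2.54 ± 0.18). NR4A1 measured 268 and 156 CPM untreated and 301 and 357 CPM treated in Surv-GFP, and 212 and 209 CPM untreated and 52.4 and 119.7 CPM treated in SurvNESmut-GFP, with a difference of -1.93 ± 0.35 (-1.45 and -2.64 without treated SurvNESmut-GFP library a or b), which was not called with a robust prior in edgeR (adjusted p = 0.0944). For all 3 receptors no untreated library overlapped a treated library of the same clone, which the naming rule required of NR4A3. The spacing of a and b was widest for NR4A1.

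TRAF1, an adaptor of tumour necrosis factor receptors, rose from 3.96 and 4.25 to 16.1 and 15.3 CPM in Surv-GFP and fell from 33.3 and 35.5 to 10.8 and 14.8 CPM in SurvNESmut-GFP, so that SurvNESmut-GFP was the higher clone before treatment and the lower one after it. The difference was -3.37 ± 0.19. CITED1, a transcriptional co-activator, rose from 3.41 and 3.86 to 7.81 and 6.71 CPM in Surv-GFP and fell from 42.4 and 41.8 to 7.01 and 11.2 CPM in SurvNESmut-GFP, the largest fall among the 8 named genes of this class (log2 change -2.22 ± 0.13). LBH, a transcription cofactor, was the reverse case: it rose from 1.35 and 1.82 to 18.2 and 18.4 CPM, while the fall in SurvNESmut-GFP from 40.4 and 39.5 to 31.9 and 36.6 CPM was slight (log2 change -0.22 ± 0.08, adjusted p = 0.0363). GEM, a small GTPase, rose from 10.1 and 8.83 to 84.5 and 82.3 CPM against 37.8 and 31.1 CPM untreated and 27.1 and 25.1 CPM treated, and SYTL5, a Rab effector in vesicle transport, from 15.9 and 17.4 to 69 and 66.5 CPM against 24.8 and 27.2 CPM untreated and 16 and 16.1 CPM treated. In both genes SurvNESmut-GFP was the higher clone untreated and the lower one treated. SSUH2 and HID1 measured no more than 4.28 CPM except in treated Surv-GFP, with log2 changes of 3.31 ± 0.17 and 2.28 ± 0.16 there against -1.28 ± 0.26 and -0.72 ± 0.22. Exons of CITED1 and NR4A1 overlap those of another annotated gene over 34.6% and 18.6% of their bases in GENCODE 29, and how such reads were counted is not stated in the labels or methods.

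BIRC5, the survivin gene itself, was in the same class. It measured 1152 and 1113 CPM in untreated and 1938 and 2029 CPM in treated Surv-GFP, and 407 and 414 CPM untreated and 262 and 253 CPM treated in SurvNESmut-GFP. All 4 groups were separate, with the lowest library of Surv-GFP above the highest of SurvNESmut-GFP. The log2 changes were 0.81 ± 0.05 and -0.67 ± 0.05, and the difference was -1.48 ± 0.06 (edgeR adjusted p = 1.06e-10). Counts of BIRC5 add up transcripts of the cells' own gene and of the plasmid, which the deposited table does not separate. The study also ran PCR with primers in an untranslated part of the mRNA, which detect only the cells' own transcript. It reports that this transcript was repressed in LN229-Surv cells 48 h after TMZ. Which of the transcripts changed in the counts was not tested. Of the 40 genes of G2 and mitosis described below, BIRC5 was the only one called up in Surv-GFP.

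Among genes that fell in Surv-GFP and rose in SurvNESmut-GFP, SLC1A3 had the largest difference of the named genes. SLC1A3, the glial glutamate transporter, measured 13.7 and 13 CPM untreated and 2.67 and 4.42 CPM treated in Surv-GFP, and 7.59 and 8.72 CPM untreated and 30.5 and 30.6 CPM treated in SurvNESmut-GFP. Untreated Surv-GFP lay above untreated SurvNESmut-GFP and the order was reversed after treatment. The changes were nearly equal in size, -1.92 ± 0.16 and 1.90 ± 0.12 on the log2 scale (difference 3.82 ± 0.20, edgeR adjusted p = 1.11e-09). SEMA5A, a semaphorin of axon guidance, fell from 108 and 104 to 26.1 and 30.2 CPM in Surv-GFP and rose from 25.2 and 25 to 41 and 35.4 CPM in SurvNESmut-GFP. MEGF10, an engulfment receptor, fell from 22.7 and 25.2 to 10.1 and 12.3 CPM and rose from 10.7 and 11.6 to 20.9 and 19.6 CPM, so that each clone ended near the starting level of the other.

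The carboxypeptidase gene CPM was expressed alike in the untreated clones, at a level of 29.6 and 24.4 for Surv-GFP and 26.9 and 27.6 for SurvNESmut-GFP in the unit used above, and ended at 13.4 and 15.3 against 56.7 and 43.1. IL17RD, an inhibitor of fibroblast growth factor signalling, fell from 8.51 and 8.22 to 3.85 and 3.73 CPM and rose from 26.3 and 21.8 to 35.3 and 33.5. OSR1, a zinc-finger transcription factor, and NAV3, a cytoskeletal protein of neurons, had falls close to the threshold in Surv-GFP (adjusted p = 0.0306 and 0.0332) and rose in SurvNESmut-GFP by 1.20 and 1.16 on the log2 scale. The oxidoreductase gene NXN, the last of the 8, lay at no more than 1.57 CPM in Surv-GFP and had a difference of 1.67 ± 0.37.

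**Figure D3:**
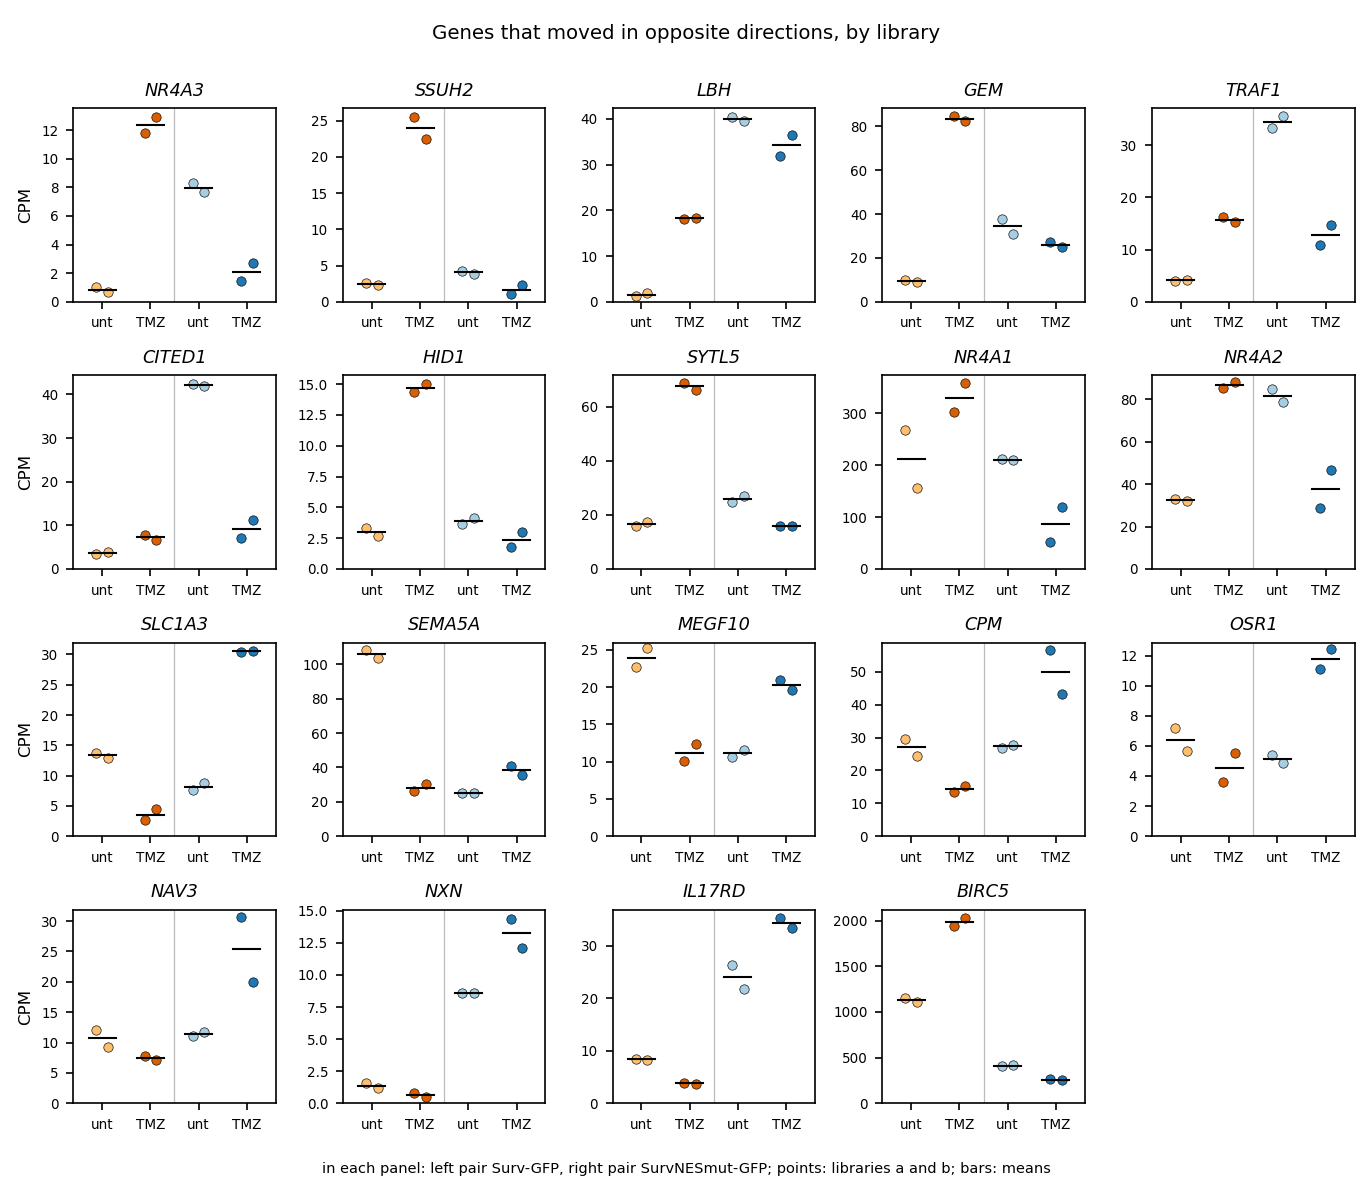
Level of 19 genes that moved in opposite directions in the clones, in CPM on axes that start at 0, for untreated (unt) and TMZ-treated libraries a and b of Surv-GFP (orange) and SurvNESmut-GFP (blue); bars are means of 2 libraries. From NR4A3 to NR4A2 and in BIRC5 the orange points rise and the blue points fall; from SLC1A3 to IL17RD the orange points fall and the blue points rise, for example SLC1A3 to 2.67 and 4.42 against 30.5 and 30.6.

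Among the 319 genes up in Surv-GFP and down in SurvNESmut-GFP, untreated SurvNESmut-GFP exceeded untreated Surv-GFP in 236, and treated SurvNESmut-GFP exceeded treated Surv-GFP in 56. Among the 236 genes of the reverse class the numbers were 102 and 204. Over all tested genes SurvNESmut-GFP was higher in 52.7% before and 50.0% after treatment. The libraries counted here also sorted the genes, which favours this order, so the counts are given as a description. The cAMP response element TGACGTCA was found on either strand in 15 of 268 promoters of the first class (5.6%). In the reverse class it was found in 5 of 187 (2.67%), against 3.28% for tested genes and 1.98% for all promoters. TGANTCA was found in 19 of 268 (7.09%) and 5 of 187 (2.67%), against 4.58% for tested genes and 7.76% for all promoters.

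Larger changes in SurvNESmut-GFP than in Surv-GFP were seen for 72 genes that rose and 92 that fell in both clones. IGFBP5, an insulin-like growth factor binding protein, is given as an example picked after its values were seen: it fell from 407 and 396 to 101 and 118 CPM in Surv-GFP and from 1120.1 and 978 to 73.2 and 169 CPM in SurvNESmut-GFP (difference -1.24 ± 0.30, or -0.76 without treated library a and -1.96 without b). Here the treated SurvNESmut-GFP libraries were again spaced with a below b, and the difference was not called in DESeq2 (adjusted p = 0.104) or in edgeR with a robust prior (adjusted p = 0.179). Without library b 306 genes had a larger change in SurvNESmut-GFP, in place of 164.

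Genes of the p53 response rose in both clones, with smaller rises in SurvNESmut-GFP. Of 36 p53 targets tested, 30 rose in Surv-GFP and 28 in SurvNESmut-GFP, with median log2 changes of 1.66 and 0.84. Of all tested genes 30.1% rose and 28.9% fell in Surv-GFP, and 18.6% rose and 19.1% fell in SurvNESmut-GFP. These shares are the background for the calls by clone in this and the following lists. The difference was negative for 22 and positive for 3 (61.1% and 8.33%, against 20.2% and 16.6% of all tested genes), with a median of -0.54 beside -0.001 over all genes. CDKN1A, which encodes p21, rose from 86.6 and 77.3 to 908 and 975 CPM in Surv-GFP and from 117 and 119 to 429 and 492 CPM in SurvNESmut-GFP. GDF15, a stress-induced cytokine, rose from 14.7 and 16.9 to 1362 and 1553 CPM and from 77.9 and 64.2 to 409 and 499 CPM. In both genes untreated SurvNESmut-GFP was above untreated Surv-GFP and treated SurvNESmut-GFP below treated Surv-GFP. The differences were -1.56 ± 0.10 and -3.85 ± 0.15. PAPPA, a protease of insulin-like growth factor binding proteins, rose from 4.23 and 4.86 to 93.3 and 93.4 CPM in Surv-GFP and, from a higher start of 48.3 and 46.3 CPM, to a similar 106 and 98.9 CPM in SurvNESmut-GFP. GADD45A, AEN and TIGAR, the others named, had differences of -2.29 ± 0.10, -1.23 ± 0.08 and -1.08 ± 0.09.

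Secreted cytokines and chemokines known from senescent cells showed the widest separation of list medians. Of 13 members tested, 10 rose in Surv-GFP and 6 in SurvNESmut-GFP, with median log2 changes of 3.01 and 0.31. The difference was negative for 9 (69.2%, against 20.2% of all tested genes), while the other 4 were not called. CXCL8, which encodes interleukin-8, rose from 12 and 9.66 to 305 and 286 CPM in Surv-GFP and from 55.3 and 58.5 to 86.3 and 96.6 CPM in SurvNESmut-GFP (difference -4.08 ± 0.11). LIF, like IL11 a cytokine of the IL-6 family, rose from 74.5 and 77.2 to 1180.1 and 1127 CPM and from 577 and 532 to 652 and 726 CPM (difference -3.61 ± 0.08). As for IL11, SurvNESmut-GFP started above untreated Surv-GFP and ended below treated Surv-GFP. IL24 had no count in untreated and 165 in treated Surv-GFP, which is at least 55.7-fold higher against a floor of 3 counts over the group, while SurvNESmut-GFP had 33 and then 39 counts. IL1A and CXCL1 had differences of -2.40 ± 0.27 and -1.60 ± 0.13. IL6 was called up in SurvNESmut-GFP and was not called in Surv-GFP. It measured no more than 7.60 CPM in any library. Its difference was 0.18 ± 0.90 (edgeR adjusted p = 0.898), which this depth could not distinguish from 0. Without library a of treated SurvNESmut-GFP 1 member had a positive difference.

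NF-κB genes, which encode its subunits, its inhibitors and adaptors that it induces, were split between the clones. In Surv-GFP 15 of 21 rose and 2 fell, and in SurvNESmut-GFP 7 rose and 3 fell. The difference was negative for 14 and positive for 2 (66.7% and 9.52%, against 20.2% and 16.6% of all tested genes). The median log2 change was 0.66 in Surv-GFP but 0.04 in SurvNESmut-GFP, where 5 members fell without treated library b. NFKB1, the precursor of the p50 subunit, measured 76.7 and 77 CPM untreated and 148 and 143 CPM treated in Surv-GFP, against 124 and 118 CPM untreated and 101 and 105 CPM treated in SurvNESmut-GFP (difference -1.15 ± 0.07). TNFAIP3, a deubiquitinase that ends NF-κB signalling, measured 9 and 7.89 CPM untreated and 26.3 and 22.7 CPM treated, against 22.4 and 20.8 CPM untreated and 21.7 and 22.9 CPM treated. NFKBIB, an inhibitor that holds NF-κB in the cytoplasm, rose from 22.2 and 23.5 to 52.8 and 53.4 CPM against 30.2 and 31.1 CPM untreated and 32.7 and 30.3 CPM treated. Treated and untreated libraries of SurvNESmut-GFP overlapped for TNFAIP3 and NFKBIB and did not for NFKB1, which fell there. TRAF1, described above, had the largest difference of the list, and RELB, NFKB2 and BIRC3 rose in both clones, with differences of -1.71 ± 0.14, -0.92 ± 0.08 and -1.40 ± 0.24.

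Windows with an NF-κB element are shown for NFKB1, REL and TNFAIP3, which were called up in Surv-GFP and not in SurvNESmut-GFP and carry the element before the start. They were picked after their values were seen, and REL, a subunit, changed by 0.70 ± 0.08 and -0.15 ± 0.08 on the log2 scale in the 2 clones. Capitals mark 1 match in each, which in TNFAIP3 lies on the opposite strand. REL holds another match shifted by 1 base on the opposite strand, and TNFAIP3 holds another, left in lower case, upstream of the marked one.
NFKB1, chr4:102501290-102501339, plus strand: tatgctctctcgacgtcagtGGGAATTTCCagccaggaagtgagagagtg
REL, chr2:60881507-60881556, plus strand: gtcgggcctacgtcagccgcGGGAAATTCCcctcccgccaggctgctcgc
TNFAIP3, chr6:137867184-137867233, plus strand: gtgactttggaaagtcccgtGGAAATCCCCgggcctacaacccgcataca
The element was found on either strand in 7 of 18 promoters of the list (38.9%), against 10.8% of all promoters in the table and 12.9% of those of tested genes.

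Among 30 immediate early and MAPK feedback genes, 13 rose in each clone. The difference was negative for 13 and positive for 6 (43.3% and 20%, against 20.2% and 16.6% of all tested genes). In SurvNESmut-GFP 6 members fell, but 3 without treated library a and 11 without b, and the median difference of -0.22 became -0.10 and -0.28. FOSL1, a partner of JUN, rose from 94.9 and 99.3 to 277 and 265 CPM in Surv-GFP and from 346 and 333 to 383 and 364 CPM in SurvNESmut-GFP. SPRED3, a MAPK inhibitor, rose only in Surv-GFP, from 19 and 16.8 to 61.8 and 63.4 CPM, against 9.16 and 10.3 CPM untreated and 9.41 and 12.3 CPM treated. The untreated clones differed in opposite directions for these genes. DUSP10 and DUSP5, phosphatases of MAP kinases, rose in both clones with differences of -2.42 ± 0.20 and -1.53 ± 0.20, as did the transcription factors ATF3 and KLF4 with -1.26 ± 0.15 and -1.37 ± 0.17.

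The integrated stress response, in which ATF4 and CHOP induce amino acid synthesis and transport, was induced in both clones. Of 29 genes, 27 rose in Surv-GFP, compared with 26 in SurvNESmut-GFP, with medians of 1.46 and 1.05 in the clones. The difference was negative for 22 and positive for 2 (75.9% and 6.9%, against 20.2% and 16.6% of all tested genes). SLC3A2 and SLC7A5, the subunits of a transporter of large neutral amino acids, rose only in Surv-GFP. SLC7A5 measured 354 and 409 CPM untreated and 1071 and 1029.7 CPM treated in Surv-GFP, and 2232 and 2141 CPM untreated and 2180.4 and 2109 CPM treated in SurvNESmut-GFP, which was higher throughout. SLC3A2 rose from 203 and 220.3 to 794 and 779 CPM against 697 and 722 CPM untreated and 731 and 714 CPM treated, so that treated Surv-GFP ended slightly above SurvNESmut-GFP. DDIT3, which encodes CHOP, rose from 30.9 and 28.6 to 277 and 281 CPM and from 15.2 and 13.5 to 41.2 and 48.4 CPM (difference -1.59 ± 0.12). TRIB3, an inhibitor of AKT induced by CHOP, PPP1R15A, which restores translation, and the arginine transporter gene SLC7A1 had differences of -2.32 ± 0.08, -2.73 ± 0.08 and -1.03 ± 0.08.

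**Figure D4:**
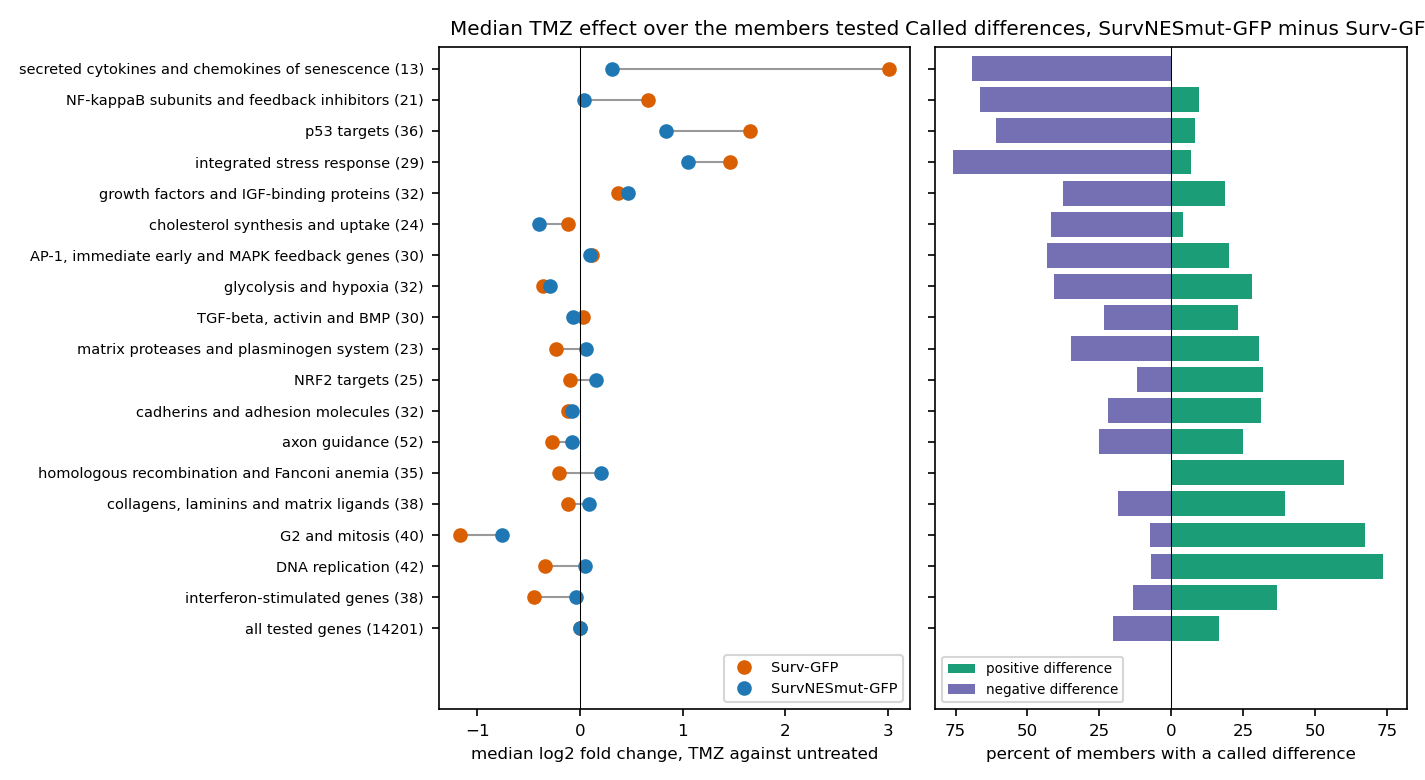
Left, median log2 fold change under TMZ over the tested members of each gene list (number in parentheses) in Surv-GFP (orange) and SurvNESmut-GFP (blue). Right, percent of members with a called difference, positive (green, to the right) or negative (purple, to the left), with all 14201 tested genes in the lowest line (16.6% and 20.2%). Cytokine, NF-κB, p53 and stress lists extend to the left; mitosis, replication and recombination lists to the right.

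Genes of G2 and mitosis fell in both clones and fell less in SurvNESmut-GFP. In each clone 37 of 40 fell, with a median log2 change of -1.17 in Surv-GFP against -0.76 in SurvNESmut-GFP, and the difference was positive for 27 (67.5%, against 16.6% of all genes) and negative for 3. KIF20A, a kinesin of cytokinesis, fell from 211 and 219 to 21.7 and 21.9 CPM in Surv-GFP and from 294 and 284 to 65.3 and 67.6 CPM in SurvNESmut-GFP (difference 1.18 ± 0.08). CCNA2, which encodes cyclin A, fell from 102 and 110.2 to 36.5 and 33.8 CPM and from 151 and 156 to 93.1 and 94.7 CPM (difference 0.88 ± 0.08). The treated SurvNESmut-GFP libraries thus kept a larger share of their untreated level. TOP2A, CENPF and INCENP, a partner of survivin in the chromosomal passenger complex, had differences of 0.75 ± 0.08, 0.77 ± 0.07 and 0.56 ± 0.07.

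The cell-cycle genes homology region, written TTTGAA, is an element through which mitotic genes are repressed, and was found on either strand in 21 of 34 promoters of the list (61.8%), against 15.4% of all promoters and 10% of those of tested genes. PLK1, a mitotic kinase, CDCA8, another member of the passenger complex, and KIF23, a kinesin, are shown as members with a called difference that carry it close to the start, picked after their values were seen.
PLK1, chr16:23678840-23678885, plus strand: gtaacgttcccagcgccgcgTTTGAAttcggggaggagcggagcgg
CDCA8, chr1:37692473-37692515, plus strand: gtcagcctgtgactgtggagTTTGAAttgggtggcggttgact
KIF23, chr15:69414274-69414319, plus strand: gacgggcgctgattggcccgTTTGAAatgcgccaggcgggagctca
On the log2 scale PLK1 changed by -2.53 in Surv-GFP against -1.98 in SurvNESmut-GFP, CDCA8 by -1.39 and -0.98, and KIF23 by -1.10 and -0.63. CDCA8 lost its call without untreated Surv-GFP library b, with a difference of 0.31 and an adjusted p of 0.0549 in edgeR's test.

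Of 42 DNA replication genes, 31 fell and 4 rose in Surv-GFP, while 11 fell and 10 rose in SurvNESmut-GFP. The difference was positive for 31 and negative for 3 (73.8% and 7.14%, against 16.6% and 20.2% of all tested genes). The median log2 change was -0.34 in Surv-GFP against 0.05 in SurvNESmut-GFP. MCM2, a subunit of the replicative helicase, fell from 182 and 185 to 94 and 95 CPM in Surv-GFP and from 267 and 254 to 204 and 209 CPM in SurvNESmut-GFP. PCNA, the sliding clamp, fell from 317 and 328 to 177 and 164 CPM and from 416 and 446 to 326 and 353 CPM. For both, the fall was smaller in SurvNESmut-GFP, by 0.62 ± 0.07 and 0.58 ± 0.08 on the log2 scale. POLD3, a subunit of DNA polymerase delta, was 1 of 5 members with opposite directions, at 56 and 57 CPM untreated and 52.2 and 50.1 CPM treated in Surv-GFP, against 55.7 and 57.3 CPM untreated and 72.7 and 76.3 CPM treated. E2F7, a repressor that rose in both clones, had a negative difference of -0.80 ± 0.09. MCM3 and MCM4 had differences of 0.50 ± 0.07 and 0.51 ± 0.07.

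Homologous recombination and Fanconi anemia genes rejoin broken DNA and clear crosslinks. Of 35 tested, 8 rose and 18 fell in Surv-GFP, while 17 rose and 1 fell (2 without treated library b) in SurvNESmut-GFP, with median log2 changes of -0.20 and 0.20. The difference was positive for 21 (60.0%, against 16.6% of all tested genes) while the other 14 were not called, and 5 members moved in opposite directions. FANCA, a subunit of the Fanconi core complex, fell from 83.9 and 88.3 to 62.7 and 59.1 CPM in Surv-GFP and rose from 101 and 97.1 to 118 and 109 CPM in SurvNESmut-GFP. XRCC2, a recombination protein, fell from 23.9 and 28 to 18.2 and 19 CPM and rose from 26.3 and 29.7 to 35.5 and 34.5 CPM, and BRIP1, a helicase partner of BRCA1, fell from 32.5 and 35.2 to 27.2 and 26.7 CPM and rose from 35.7 and 39.8 to 46.3 and 52.6 CPM. In these genes the libraries of each clone separated without overlap, although the changes were under 1 on the log2 scale (differences 0.70 ± 0.08, 0.80 ± 0.13 and 0.72 ± 0.11).

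DNA2, a nuclease, and BLM, a helicase, fell in Surv-GFP, with log2 changes of 0.13 ± 0.08 and 0.09 ± 0.07 in SurvNESmut-GFP that missed the threshold. FANCI, which is monoubiquitinated at stalled forks, rose in SurvNESmut-GFP from 267 and 270.5 to 335 and 342 CPM, against 148 and 161 CPM untreated and 152 and 146 CPM treated in Surv-GFP. Exons of FANCA overlap those of ZNF276 on the other strand over 22.4% of their bases.

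The sequence TTCCCGCC, a form of the site bound by E2F factors, was found on either strand in 10 of 31 promoters of the recombination list (32.3%) and 10 of 35 of the replication list (28.6%), against 3.18% of all promoters and 4.97% of those of tested genes. RAD54L, a motor protein of strand exchange, and BLM are shown because both had a called positive difference and a match before the start, in BLM on the opposite strand, and RAD54L was picked after its values were seen.
RAD54L, chr1:46247619-46247666, plus strand: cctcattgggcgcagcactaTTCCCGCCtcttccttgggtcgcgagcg
BLM, chr15:90717251-90717298, plus strand: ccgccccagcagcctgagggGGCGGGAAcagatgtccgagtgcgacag
RAD54L fell from 48.1 and 53.6 to 44.6 and 39.7 CPM in Surv-GFP and rose from 65.8 and 65.4 to 76 and 76.6 CPM in SurvNESmut-GFP.

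**Figure D5:**
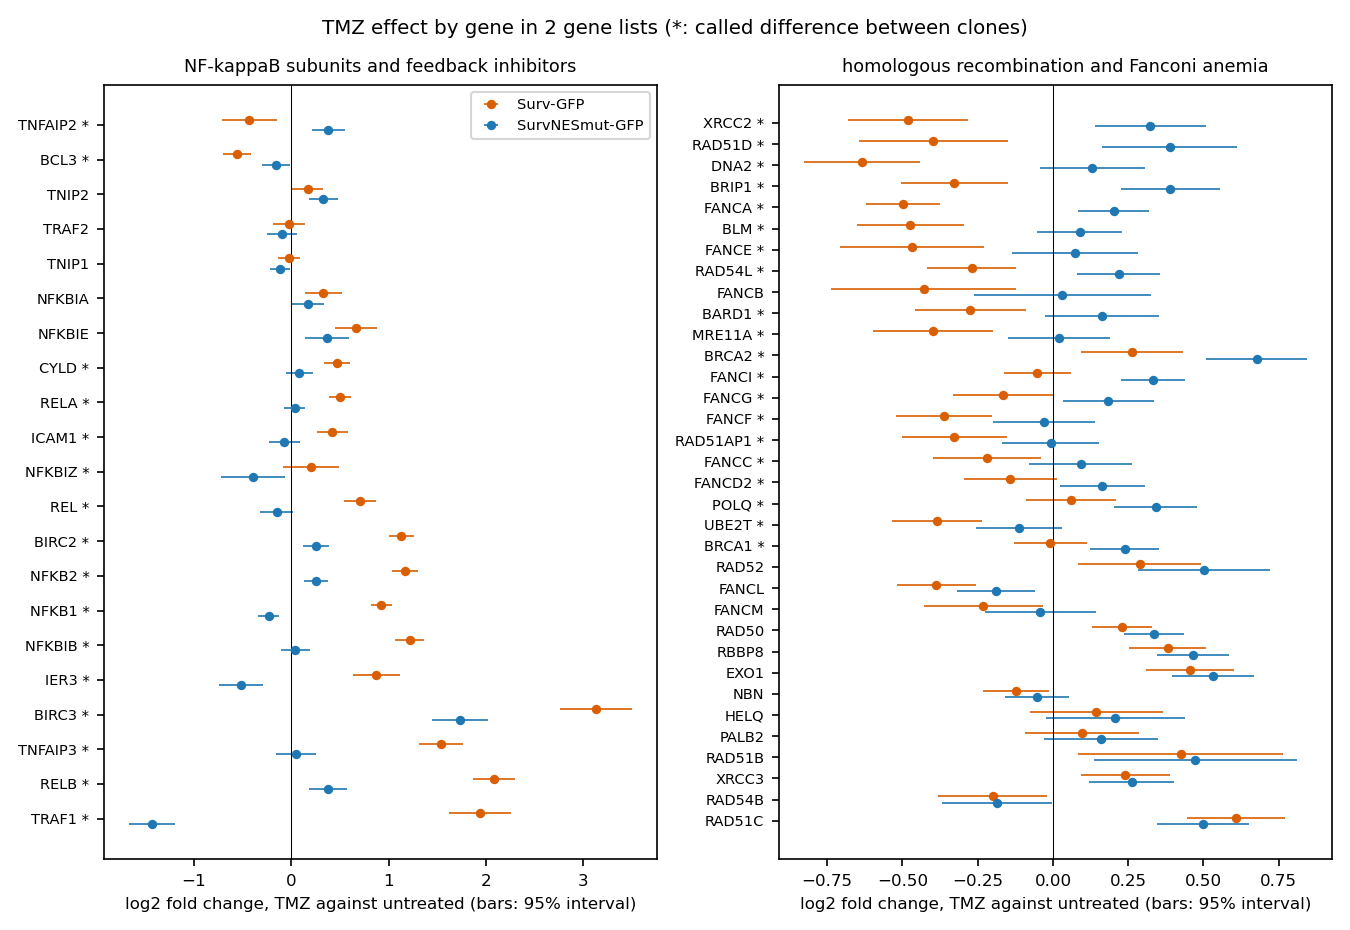
Log2 fold change under TMZ with its 95% interval for the tested genes of the NF-κB list (left) and of the homologous recombination and Fanconi anemia list (right, 1 member not plotted) in Surv-GFP (orange) and SurvNESmut-GFP (blue), ordered by the difference; an asterisk marks a called difference. On the left most orange points lie to the right of the blue ones, with TRAF1 furthest apart; on the right the marked genes have the blue point to the right.

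Genes of cholesterol synthesis and uptake fell in SurvNESmut-GFP, where 19 of 24 were called down and the other 5 were not called, while 3 rose and 8 fell in Surv-GFP. The difference was negative for 10 and positive for 1 (41.7% and 4.17%, against 20.2% and 16.6% of all tested genes). The median change was -0.12 in Surv-GFP against -0.40 in SurvNESmut-GFP. CYP51A1, a sterol demethylase, rose from 161 and 162 to 232 and 224 CPM in Surv-GFP and fell from 183 and 186 to 119 and 162 CPM in SurvNESmut-GFP. INSIG1, a sensor that limits sterol synthesis, measured 143 and 141 CPM untreated and 146 and 132 CPM treated in Surv-GFP, and 139.9 and 139 CPM untreated and 57.6 and 95.7 CPM treated in SurvNESmut-GFP. The treated SurvNESmut-GFP libraries were widely spaced, with a the lower. Without library a 13 of the 24 fell in SurvNESmut-GFP, 7 had a negative and 2 a positive difference, and without library b these were 21, 16 and 0. STARD4, a lipid carrier gene, changed by 0.60 ± 0.12 in Surv-GFP and by -0.40 ± 0.13 in SurvNESmut-GFP. The difference of CYP51A1 was -0.89 ± 0.13 (-0.69 without library a and -1.13 without b), and those of INSIG1, DHCR7 and HMGCS1 were -0.83 ± 0.19, -0.52 ± 0.14 and -0.49 ± 0.14. Without library a the last 3 became -0.51, -0.29 and -0.29, and DHCR7 became -0.78 without library b. INSIG1 and DHCR7 were not called in DESeq2 (adjusted p = 0.077 and 0.124), and with a robust prior in edgeR neither they (0.136 and 0.159) nor HMGCS1 (0.0504) and STARD4 (0.0725) were.

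Of 38 interferon-stimulated genes, 19 fell and 4 rose in Surv-GFP, while 8 fell (5 without treated library a) and 8 rose in SurvNESmut-GFP. The difference was positive for 14 and negative for 5 (36.8% and 13.2%, against 16.6% and 20.2% of all tested genes). OAS3, an antiviral oligoadenylate synthetase, was at 63.5 and 68.8 CPM untreated and 58.3 and 55.8 CPM treated in Surv-GFP and rose from 122 and 114 to 154 and 146 CPM in SurvNESmut-GFP. IFI16, a sensor of DNA in the nucleus, went the other way, from 227 and 228 to 367 and 363 CPM in Surv-GFP against 137 and 139.6 CPM untreated and 106 and 131 CPM treated. Both were called in opposite directions. DTX3L and PARP9, which act together in DNA damage signalling, had differences of 0.74 ± 0.11 and 0.76 ± 0.13, and IFIT2 and IFIT3 of 1.44 ± 0.23 and 0.89 ± 0.15.

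NRF2 targets had a positive difference in 8 of 25 members and a negative one in 3 (32% and 12%, against 16.6% and 20.2% of all tested genes). NQO1, a quinone reductase, fell from 932 and 904 to 544 and 546 CPM in Surv-GFP and measured 524 and 539 CPM untreated and 546 and 557 CPM treated in SurvNESmut-GFP. Treated Surv-GFP thus came down to the level of SurvNESmut-GFP. The enzymes of the pentose phosphate pathway PGD and TALDO1 had differences of 0.61 ± 0.07 and 0.59 ± 0.07, the ferritin gene FTH1 of 0.48 ± 0.07 and OSGIN1 of -0.91 ± 0.22.

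Matrix genes divided by family member. Of 38 collagens, laminins and matrix ligands, 15 had a positive and 7 a negative difference (39.5% and 18.4%, against 16.6% and 20.2% of all tested genes). COL5A1, a fibrillar collagen, fell from 155 and 149.8 to 111 and 117 CPM in Surv-GFP and rose from 441 and 454 to 694 and 581 CPM in SurvNESmut-GFP, whereas THBS2, an antiangiogenic thrombospondin, rose from 923 and 951 to 1679 and 1741 CPM and fell from 1945 and 1909 to 1438 and 1578 CPM. These were the only 2 members of the list with opposite directions, against 4 without either treated SurvNESmut-GFP library. COL16A1 and VCAN rose in SurvNESmut-GFP, with differences of 1.11 ± 0.10 and 0.67 ± 0.07, and COL4A2 and LAMC1 fell in Surv-GFP, with differences of 0.54 ± 0.07 and 0.59 ± 0.08. Among 23 matrix proteases and genes of the plasminogen system 7 differences were positive and 8 negative (30.4% and 34.8%). ADAMTS9, a protease of proteoglycans, fell from 54.5 and 56.8 to 41.3 and 36.4 CPM and rose from 29.3 and 30.9 to 45.1 and 41.2 CPM. The protease inhibitor gene SERPINB8 rose only in Surv-GFP (difference -1.35 ± 0.08), and PLAT and ADAM19 had differences of -0.57 ± 0.07 and -0.84 ± 0.10.

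Axon guidance genes had 13 positive and 13 negative differences among 52 (25% each, against 16.6% and 20.2% of all tested genes). Whether these shares differ was not tested. Besides SEMA5A, described above, the list held EFNA5, an ephrin ligand, which fell only in Surv-GFP, from 71.4 and 72.2 to 32.5 and 31.3 CPM against 36.1 and 34.7 CPM untreated and 33.6 and 33 CPM treated. The ephrin gene EFNB2, the receptor gene EPHA2 and SLIT2 rose in both clones with negative differences of -1.31 ± 0.09, -0.90 ± 0.07 and -1.18 ± 0.11, and NRP1 had -0.72 ± 0.08. Of 32 cadherins and related adhesion molecules, 10 had a positive and 7 a negative difference (31.25% and 21.9%). PCDH1, a protocadherin, rose from 109 and 112 to 156 and 153 CPM in Surv-GFP and fell from 119 and 117 to 89.7 and 91.3 CPM in SurvNESmut-GFP. FAT4, a giant cadherin, fell only in Surv-GFP, from 10.2 and 9.27 to 3.21 and 2.98 CPM against 9.98 and 9.33 CPM untreated and 10.6 and 7.75 CPM treated. TENM1 was at 70.6 and 70.8 CPM untreated and 186 and 203 CPM treated in Surv-GFP and under 2 CPM in SurvNESmut-GFP. FAT1, ALCAM and CDH24 had differences of -0.62 ± 0.10, -0.45 ± 0.07 and 0.82 ± 0.14.

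In the TGF-β family and its antagonists 7 of 30 differences were positive and 7 negative (23.3% each, against 16.6% and 20.2% of all tested genes). Whether these shares differ was not tested. FST, the activin antagonist follistatin, rose from 64.7 and 49.2 to 116 and 116 CPM in Surv-GFP and fell from 34.5 and 36.6 to 12.9 and 27.4 CPM in SurvNESmut-GFP, with a difference of -1.86 ± 0.25, or -1.41 without treated SurvNESmut-GFP library a and -2.50 without b. SKIL, a repressor of SMAD signalling, rose from 31.4 and 33.6 to 45.6 and 44.9 CPM and fell from 123 and 118 to 79 and 86.4 CPM. BMP6 was the only other member with opposite directions (difference -1.97 ± 0.24), INHBA, an activin subunit, rose in both clones (-1.26 ± 0.10) and LTBP2 rose in SurvNESmut-GFP (0.80 ± 0.11). Growth factors and their binding proteins had 12 negative and 6 positive differences among 32 (37.5% and 18.75%). VEGFA, the main angiogenic factor, rose from 19.2 and 19 to 217 and 209 CPM in Surv-GFP and from 50.8 and 48.7 to 168 and 153 CPM in SurvNESmut-GFP. IGFBP3, a p53-induced binding protein, rose from 4.23 and 2.98 to 95.9 and 106 CPM and, less steeply, in SurvNESmut-GFP from 11.7 and 12.9 CPM (log2 change 0.89 ± 0.13). Their differences were -1.79 ± 0.09 and -3.92 ± 0.20, those of STC2 and PDGFC -2.31 ± 0.18 and -0.96 ± 0.07, and HBEGF rose only in Surv-GFP (-1.54 ± 0.22). The median difference of this list was -0.41, although its median change was 0.37 in Surv-GFP against 0.47 in SurvNESmut-GFP.

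Glycolysis and hypoxia genes mostly fell in both clones, with 20 of 32 called down in Surv-GFP against 19 in SurvNESmut-GFP. Of the differences 13 were negative and 9 positive (40.6% and 28.1%, against 20.2% and 16.6% of all tested genes). PFKFB4, a regulator of glycolysis, rose from 14.7 and 17.1 to 42.6 and 41.5 CPM in Surv-GFP and from 111 and 107 to 141 and 146 CPM in SurvNESmut-GFP. SLC2A1, the main glucose transporter, rose from 92.6 and 98.7 to 164 and 162 CPM in Surv-GFP, against 288 and 271 CPM untreated and 288 and 287 CPM treated. The prolyl hydroxylase gene P4HA1 and the histone demethylase gene KDM3A fell in SurvNESmut-GFP, with negative differences of -0.60 ± 0.09 and -0.44 ± 0.07. HK1 fell less there (0.51 ± 0.07), and the carbonic anhydrase gene CA12, at no more than 3.74 CPM, moved in opposite directions (2.63 ± 0.45).

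The genes that the study measured by PCR were also followed, which is no independent choice since the study picked them with its own samples in view. Of 11 tested, 3 had a positive and 5 a negative difference (27.3% and 45.5%, against 16.6% and 20.2% of all tested genes). EXO1, a nuclease of mismatch repair and end resection, rose in both clones by 0.45 and 0.53 on the log2 scale, and the 95% interval of its difference was 0.08 ± 0.20. TP53BP1, which shields double-strand breaks from resection, changed by 0.08 ± 0.05 and 0.08 ± 0.05, and the 95% half-width of its difference was 0.16. XIAP, an inhibitor of caspases, rose from 88.2 and 92.7 to 124 and 115 CPM in Surv-GFP and measured 86.2 and 91.5 CPM untreated and 80.7 and 79.7 CPM treated in SurvNESmut-GFP (difference -0.55 ± 0.08). The reference genes ACTB and GAPDH fell in both clones, more in Surv-GFP, with differences of 0.37 ± 0.07 and 0.18 ± 0.06, of which that of GAPDH was not called with the quasi-likelihood method of edgeR 4 (adjusted p = 0.0506) or without 1 of 3 libraries (adjusted p up to 0.132).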

How the data were processed

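RNA of 8 samples of 2 LN229 clones, untreated or treated with 50 µM TMZ for 48 h, was sequenced on Illumina libraries. The authors deposited a table of raw read counts per gene. Per the labels, STAR 2.5.0b, Cufflinks 2.2.1 and edgeR were used; neither the genome build nor the strand setting of the counting is stated in the labels or methods. Deposited tables of the authors' comparisons hold fold changes and p-values and were not used. Rows for reads without a feature (11.2% to 14.3% of the reads in a library) and ambiguous reads (1.19% to 1.28%) were left out of totals and tests.

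In R 4.3.3, edgeR 4.0.16 (TMM scaling with factors from 0.978 to 1.02, genes filtered by expression in each group, quasi-likelihood F test) was fitted once to all 8 libraries with 4 group means, and the contrasts of each clone and their difference were tested over 14201 genes. The common biological coefficient of variation was 4.09%. SE was derived from the log2 fold change and its F value. Levels are CPM on TMM-scaled library sizes, not adjusted for gene length, so that levels of different genes were not compared. The scripts were tested on simulated data.

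The gene lists and the classes compared here were chosen with earlier results of these data known. Named genes were, in each class of 1-clone or opposite response, the 8 with the largest difference among those that reached 10 CPM in a group and whose libraries did not overlap in a called clone, and up to 6 members of each list with the smallest p, and the genes of the PCR list; some of these are not reported here. The letters of the libraries carried little shared signal across groups: deviations from group means correlated at -0.067 to 0.083. This cannot show whether libraries of the same letter were handled together. Promoters were matched for 11213 of the 14201 genes by symbol or synonym in a RefSeq table (GRCh38.p14, the first window listed for a symbol), and motifs were searched on both strands: an AP-1, a cAMP response, a cell-cycle homology, an E2F and an NF-κB element. In GENCODE 29, exons of FTH1, REL, RAD54L, TIGAR, TP53BP1, MCM2, EFNB2, IL6, PAPPA, HMGCS1, GAPDH and NQO1, besides the genes noted in the text, overlap another gene over 18% to 56.6% of their bases, where reads may be shared or left out. Alternatives were other scaling, filters, DESeq2 1.42.0, other quasi-likelihood settings, a letter block, other interval bounds and leaving out each library; counts of gene lists without each treated SurvNESmut-GFP library were added after seeing the data.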

Additional observations from a re-analysis of the deposited data

Results flagged for a closer look

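The effect of TMZ differed between the clones for 2355 genes with a positive and 2871 genes with a negative difference, by the test of the difference itself (edgeR's quasi-likelihood test). Of the genes called in each clone with opposite signs, 319 rose in Surv-GFP and fell in SurvNESmut-GFP and 236 did the reverse. With library sizes alone the order of these counts turned, to 2909 positive and 2385 negative differences and 224 and 320 opposite responses, as it did with a filter at 1 CPM (2815 and 2493, 273 and 287). Reads outside annotated features, which entered no comparison, made up 14.3% of library a of treated SurvNESmut-GFP, above the 11.2% to 12.8% of the other 7 libraries.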

How the results depend on the processing

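Each library was left out in turn, which leaves its group with 1 library that is assumed to vary like the others. Positive differences then numbered 1798 to 2458 and negative ones 2236 to 3051. Called genes in Surv-GFP numbered 3508 to 4556 (up) and 3366 to 4314 (down), and in SurvNESmut-GFP 1810 to 2862 and 1938 to 2845. Of the 5226 called differences, 4043 to 4805 were kept. The classes moved more: Surv-GFP only 79 to 108 up and 45 to 82 down, SurvNESmut-GFP only 6 to 11 up and 1 to 12 down, opposite 203 to 427 (up in Surv-GFP) and 134 to 296 (down in Surv-GFP), same direction 723 to 1084 with a smaller and 70 to 306 with a larger change in SurvNESmut-GFP. The class that fell only in SurvNESmut-GFP held 12 genes without treated SurvNESmut-GFP b, 1 without either treated Surv-GFP library and 2 without untreated Surv-GFP a, untreated SurvNESmut-GFP a or treated SurvNESmut-GFP a. The class that rose only there held 6 without untreated Surv-GFP a or treated SurvNESmut-GFP a. Opposite responses were fewest without untreated SurvNESmut-GFP a (207 and 146) or b (203 and 134), and same-direction smaller changes then numbered 723 and 729. DESeq2 kept 3832 of the calls and found 194 and 137 opposite genes, 78 with a larger change in the same direction and 1 that fell only in SurvNESmut-GFP, as did a robust prior (1). With an interval bound of 1 in place of 0.5, 133 genes rose and 140 fell in Surv-GFP only and 18 and 10 in SurvNESmut-GFP only, and with 0.3 the numbers were 55, 21, 4 and 0. A replicate block for the letters gave 2277 positive and 2797 negative differences, with 294 and 217 opposite genes, and changed no count by over 1.5 times. Whether the letters mark pairs is not stated in the labels. Positive calls made up 45.1% of all, 54.9% with library sizes alone and 53% with a filter at 1 CPM. Of 162 genes named, 159 had a called difference. Under 16 alternatives each, 2526 of their values kept call and direction, 18 in 10 genes (AZGP1, CDCA8, DHCR7, GAPDH, HMGCS1, IGFBP5, INSIG1, MEF2C, NR4A1, STARD4) lost the call, 7 of them with a robust prior, and none was reversed. EXO1, IL6 and TP53BP1 had no call in any of the 16, and 7 of their values had the other sign. The cause of these shifts was not tested, apart from the narrower or wider bound itself.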
